A study of Homo sapiens
Mus musculus with 2 samples.

Results

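The G2 and mitosis genes described here are 15 human genes and their 15 mouse counterparts, 30 of the 29259 gene identifiers in the 2 tables. They are defined by identifier, and were chosen with earlier results of these data known. The genes are MKI67, TOP2A, CCNB1, CCNB2, CDK1, CDC20, UBE2C, BIRC5, AURKA, AURKB, PLK1, TPX2, CENPF, CENPE and BUB1, and all 30 identifiers were present in both tables. As background, a dividing cell raises these transcripts after DNA replication and clears most of them when division ends. They encode the kinases that drive entry into mitosis, the proteins that condense and hold chromosomes, the motor and checkpoint proteins of the kinetochore, and the enzymes that end mitosis by marking cyclin B for destruction. In a culture that divides without synchrony, cells at each stage are present together, so a droplet library catches some cells rich in these transcripts and others nearly empty of them.

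The data were Drop-seq libraries, in which a cell and a barcoded bead share a droplet and transcript ends are counted with unique molecular identifiers (UMIs). A mixture in equal parts of EL4 (a mouse T cell line), IVA12 (a mouse B cell line), Jurkat and TALL-104 (human T cell lines) was loaded on the Dolomite system, once at 150 and once at 300 cells per µl. By the study's methods EL4 and Jurkat were grown in RPMI medium, IVA12 in DMEM, and TALL-104 in IMDM with an added interleukin. Line and medium therefore cannot be told apart between EL4 and IVA12. No other treatment was applied, and every line is an established culture. Each concentration had 1 library, so differences between concentrations had no replicate and were not tested. A cell was a barcode of at least 1000 UMIs with at least 90% of them from 1 species, which left 87 human and 85 mouse cells in the library at 150 cells per µl and 318 human and 685 mouse cells in the library at 300 cells per µl.

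The mouse cells were split into lines by clustering without the genes described here, and the groups were named by T and B cell markers. These markers were not left out of the clustering. Their sums, given next, chose the names and are not an independent check of them. EL4-like cells (50 and 390 cells in the libraries at 150 and 300 cells per µl) held 29.8 and 31.8 T cell marker UMIs per 10000 UMIs, and IVA12-like cells (27 and 223 cells) held 0.426 and 1.11. The B cell marker sum was 61.9 and 59.1 per 10000 in IVA12-like cells and 0.884 and 1.75 in EL4-like cells. It came mostly from Jchain, Cd79b, Ms4a1 and Pou2af1, while Cd79a, Cd22 and H2-Aa were at or near 0 in both groups. A cluster of 80 shallow mouse cells, rich in B cell markers, was left unnamed and out of the comparisons. Another shallow cluster, of 53 cells, was kept as EL4-like, since 2 T cell markers were among its top 10 genes. EL4-like cells thus included 7 and 48 cells under 2000 UMIs of their species, and IVA12-like cells included 0 and 1. Human cells are called Jurkat-like, since the 8 TALL-104 markers together gave 13 and 42 UMIs over all human cells, against 368 and 894 UMIs of the 5 Jurkat markers. Even so, CD4 itself was near 0 in them. The largest human cluster was not the same in the libraries (71 of 87 cells in 1 cluster at the lower loading, 225 of 318 in another at the higher), and this split applies to every human comparison between libraries. No cell barcode was shared by the cells of the libraries. Median UMIs of the own species were 10843 and 7466 per EL4-like cell, 14732 and 8491 per IVA12-like cell, and 6229 and 3557 per Jurkat-like cell.

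As a group, the 15 genes took a smaller share of the transcripts in IVA12-like cells than in EL4-like and Jurkat-like cells, most clearly in the library at 150 cells per µl. Levels are given as UMIs per 10000 UMIs of the same species, summed over the cells of a line, and each UMI stands for 1 transcript end whatever the length of the transcript. In EL4-like cells the sum over the 15 genes was 40.4 per 10000 (95% exact Poisson interval 38.9 to 42.1) at the lower loading and 42.0 (41.3 to 42.7) at the higher. IVA12-like cells gave 26.5 (25.01 to 28.1) and 37.3 (36.5 to 38.1), and Jurkat-like cells gave 40.6 (39.1 to 42.3) and 44.9 (43.8 to 46.1). IVA12-like cells were thus lowest in both libraries, with intervals apart from those of the other lines. At the higher loading the intervals of EL4-like and Jurkat-like cells were also apart. These intervals cover counting error only, not the spread between cells or cultures. RNA of the other species in the same droplets is not counted in these sums. Jurkat-like cells held 0.287 and 0.660 UMIs of the mouse genes per cell in the libraries at 150 and 300 cells per µl, and the human genes gave 0.179 to 0.407 UMIs per mouse cell. Stray RNA of the same species, such as that of the other mouse line, would be counted in the sums and was not measured.

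Both chromosome-bound genes led the order in each line. MKI67 (hg19_ENSG00000148773, mm10_ENSMUSG00000031004) encodes Ki-67, which coats mitotic chromosomes and keeps them apart, and TOP2A (hg19_ENSG00000131747, mm10_ENSMUSG00000020914) encodes the topoisomerase that untangles sister DNA molecules. Top2a was at 8.82 and 9.39 UMIs per 10000 in EL4-like cells (150 and 300 cells per µl, the order used for each pair of values here), at 6.28 and 7.06 in IVA12-like cells, and TOP2A was at 5.43 and 5.77 in Jurkat-like cells. Mki67 was at 5.50 and 7.33 in EL4-like cells and at 4.13 and 6.36 in IVA12-like cells, and MKI67 was at 4.30 and 6.75 in Jurkat-like cells. TOP2A was the most abundant of the 15 genes in 5 of the 6 combinations of line and library. The exception was Jurkat-like cells at 300 cells per µl, where MKI67 was above it. Together this pair made up 35.4% and 39.8% of the UMIs of the 15 genes in EL4-like cells, 39.3% and 36.0% in IVA12-like cells, and 23.9% and 27.9% in Jurkat-like cells.

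**Figure D1:**
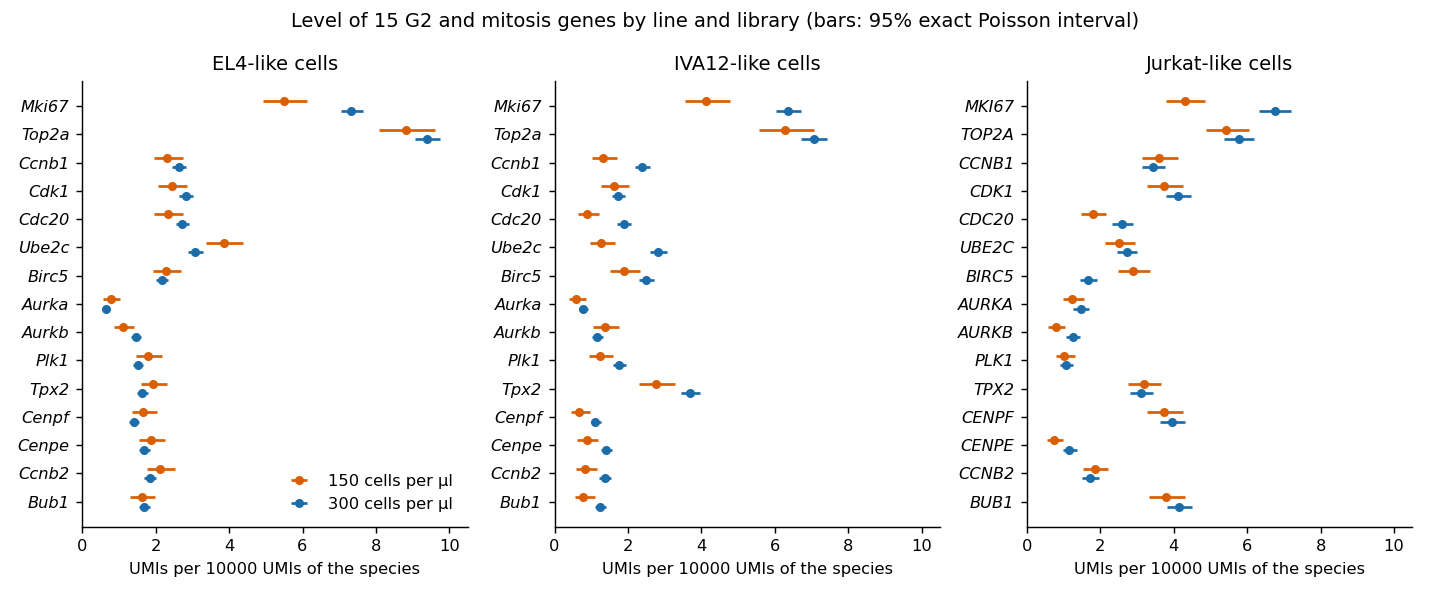
Level of each gene in UMIs per 10000 UMIs of its species (horizontal axis) in EL4-like, IVA12-like and Jurkat-like cells, with 1 point per library and bars for the 95% exact Poisson interval. MKI67 and TOP2A stand to the right of the other 13 genes in each panel, from 4.13 to 9.39, and the IVA12-like points of most genes are further left at 150 than at 300 cells per µl.

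Cyclin B and its kinase form the switch that starts mitosis. CDK1 (hg19_ENSG00000170312, mm10_ENSMUSG00000019942), the kinase itself, was at 2.43 and 2.82 per 10000 in EL4-like cells, at 1.61 and 1.74 in IVA12-like cells and at 3.75 and 4.12 in Jurkat-like cells. CCNB1 (hg19_ENSG00000134057, mm10_ENSMUSG00000041431), its main cyclin partner, was at 2.32 and 2.63, at 1.32 and 2.39, and at 3.601 and 3.44 in the same lines. CCNB2 (hg19_ENSG00000157456, mm10_ENSMUSG00000032218), the second B-type cyclin, was at 2.12 and 1.84, at 0.830 and 1.37, and at 1.85 and 1.71. The order of the lines was therefore not the same within the complex, since CDK1 and CCNB1 were highest in Jurkat-like cells, while for CCNB2 the intervals of EL4-like and Jurkat-like cells overlapped in both libraries.

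The exit from mitosis is run by the anaphase-promoting complex. CDC20 (hg19_ENSG00000117399, mm10_ENSMUSG00000006398), which activates the complex, was at 2.33 and 2.73 per 10000 in EL4-like cells, at 0.897 and 1.89 in IVA12-like cells and at 1.80 and 2.60 in Jurkat-like cells. UBE2C (hg19_ENSG00000175063, mm10_ENSMUSG00000001403), the ubiquitin-conjugating enzyme that works with it, was at 3.85 and 3.08, at 1.28 and 2.82, and at 2.51 and 2.72. These genes showed the widest gap between the libraries, and only in IVA12-like cells was it over 2-fold.

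Among the Aurora and Polo kinases and their partners, Aurka was the scarcest of the 15 genes in both mouse lines and TPX2 stood higher in IVA12-like and Jurkat-like than in EL4-like cells. AURKA (hg19_ENSG00000087586, mm10_ENSMUSG00000027496), the kinase of the spindle poles, was at 0.784 and 0.637 per 10000 in EL4-like cells, at 0.583 and 0.784 in IVA12-like cells and at 1.23 and 1.46 in Jurkat-like cells. TPX2 (hg19_ENSG00000088325, mm10_ENSMUSG00000027469), the spindle protein that activates AURKA, was at 1.93 and 1.63, at 2.76 and 3.69, and at 3.18 and 3.11. In IVA12-like cells Tpx2 came after Mki67 and Top2a as the next most abundant of the 15 genes, while in EL4-like cells it was in the lower part of the order.

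AURKB (hg19_ENSG00000178999, mm10_ENSMUSG00000020897) and BIRC5 (hg19_ENSG00000089685, mm10_ENSMUSG00000017716) encode the kinase and the survivin subunit of the chromosomal passenger complex, which corrects faulty spindle attachments. AURKB was at 1.12 and 1.45 per 10000 in EL4-like cells, at 1.37 and 1.16 in IVA12-like cells and at 0.795 and 1.25 in Jurkat-like cells. BIRC5 was at 2.28 and 2.17, at 1.88 and 2.49, and at 2.89 and 1.67. PLK1 (hg19_ENSG00000166851, mm10_ENSMUSG00000030867), the Polo kinase of mitotic entry and cell separation, was at 1.80 and 1.52, at 1.23 and 1.77, and at 1.02 and 1.07. Neighbours in this range, such as AURKB and PLK1 in Jurkat-like cells, had overlapping intervals in both libraries (0.588 to 1.05 against 0.785 to 1.31, and 1.07 to 1.46 against 0.903 to 1.26).

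Of the 3 kinetochore genes, CENPF and BUB1 were at a higher level in the human cells than in either mouse line. CENPF (hg19_ENSG00000117724, mm10_ENSMUSG00000026605), a large protein of the nuclear matrix and kinetochore, was at 3.75 and 3.96 per 10000 in Jurkat-like cells, against 1.67 and 1.41 in EL4-like and 0.673 and 1.12 in IVA12-like cells. BUB1 (hg19_ENSG00000169679, mm10_ENSMUSG00000027379), a kinase of the spindle checkpoint, was at 3.80 and 4.14 in Jurkat-like cells, against 1.62 and 1.69 in EL4-like and 0.785 and 1.24 in IVA12-like cells. CENPE (hg19_ENSG00000138778, mm10_ENSMUSG00000045328), the motor that aligns chromosomes, was instead highest in EL4-like cells, with 0.746 and 1.15 in Jurkat-like cells, 1.87 and 1.69 in EL4-like cells and 0.875 and 1.41 in IVA12-like cells at 150 and 300 cells per µl. Species and line cannot be told apart in these comparisons, because the human reads were counted on another annotation and only 1 human line could be identified. Over the 15 genes, log2 levels correlated between the libraries of 1 line at Pearson r of 0.967 (EL4-like), 0.928 (IVA12-like) and 0.916 (Jurkat-like), between the mouse lines at 0.784 to 0.897, and between mouse and human cells at 0.507 to 0.685. These are descriptions over 15 genes, which are not independent samples.

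In the mouse lines the question is whether the T cell and the B cell line differ in these genes beyond the disagreement of their ratio between the libraries. UMIs were summed to 4 profiles, 1 per line and library, and tested over all mouse genes with edgeR's quasi-likelihood test with the library as a block and Benjamini-Hochberg adjustment. All 15 mouse genes passed the filter on low counts. Tpx2 was called higher in IVA12-like cells and 10 genes were called higher in EL4-like cells at an adjusted p under 0.05. Over all 8872 mouse genes tested, 27.6% were called higher in IVA12-like and 29.2% in EL4-like cells, so calls were common in this contrast, and the direction of the 15 genes was more uneven than that of all genes. The median log2 ratio of the 15 genes was -0.48, against -0.03 over all genes tested.

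Tpx2 had 116 and 523 UMIs in EL4-like cells and 123 and 813 UMIs in IVA12-like cells. The log2 ratio of IVA12-like to EL4-like cells was 0.51 (95% exact interval 0.13 to 0.89) in the library at 150 cells per µl, and in the other it was 1.18 (1.01 to 1.34), so IVA12-like cells were higher in both libraries. The fitted log2 ratio was 0.94 (edgeR, adjusted p = 3.11e-13), and DESeq2 gave 0.86 ± 0.29 (SE) with an adjusted p of 0.0228. Tpx2 stayed called in all 10 alternatives.

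Cdc20, Cdk1, Ccnb2, Bub1, Cenpf, Ube2c, Cenpe, Top2a, Ccnb1 and Mki67 were the genes called higher in EL4-like cells, with fitted log2 ratios from -0.76 for Cdc20 to -0.31 for Mki67. Ccnb1 and Mki67 were each called in 6 of 10 alternatives, the fewest among these genes, and Cdc20 in all 10. Cdc20 was lower in IVA12-like cells by a log2 ratio of -1.38 (-1.92 to -0.86) at the lower loading and of -0.53 (-0.70 to -0.36) at the higher (edgeR, adjusted p = 3.98e-08). Cdk1 gave -0.59 and -0.70 in the libraries (edgeR, adjusted p = 2.50e-07), which was the most even ratio beside that of Top2a, at -0.49 and -0.41 (edgeR, adjusted p = 1.07e-06). For the kinetochore genes the ratio at 150 cells per µl was more negative than at 300 cells per µl. Cenpf gave -1.31 and -0.34, Cenpe -1.09 and -0.26, and Bub1 -1.04 and -0.45. Ube2c and Ccnb1 rested mostly on 1 library, since their log2 ratios at 300 cells per µl were -0.13 (-0.27 to 0.02) and -0.14 (-0.30 to 0.02), with intervals that include 0, against -1.59 and -0.81 at 150 cells per µl.

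This count depended on the model. With DESeq2 and a library term, 2 of the 15 genes were called higher in EL4-like cells (Top2a, adjusted p = 0.0141, and Cdc20, adjusted p = 0.0456), where 8.47% of 10055 genes were called in that direction and 9.13% in the other. Without the library block, edgeR called 5 (Cdk1, Cdc20, Cenpf, Ccnb2 and Bub1), where 19.7% of all genes were called in that direction and 19.0% in the other. The ratios of the calls lost there were about as large as with the block, such as -0.76 for Ube2c, -0.63 for Cenpe and -0.49 for Top2a. The fit with the block has 4 profiles and 1 residual degree of freedom, and its estimate of spread is shared in part over all genes. The libraries may differ only technically. The p-values therefore set a line ratio against counting error and its disagreement between the libraries, and not against a spread between cultures.

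Birc5, Aurka, Aurkb and Plk1 were not called. Their fitted log2 ratios lay between -0.20 for Aurkb and 0.09 for Aurka, and in all 4 the sign differed between the libraries. All 4 belong to the kinases and partners, the one role in which no gene was called higher in EL4-like cells. Summed over the 5 genes of that role, the level was 7.92 and 7.41 per 10000 in EL4-like cells and 7.83 and 9.89 in IVA12-like cells. By contrast, the cyclin B and CDK1 genes summed to 6.87 and 7.29 in EL4-like cells and to 3.77 and 5.50 in IVA12-like cells.

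**Figure D2:**
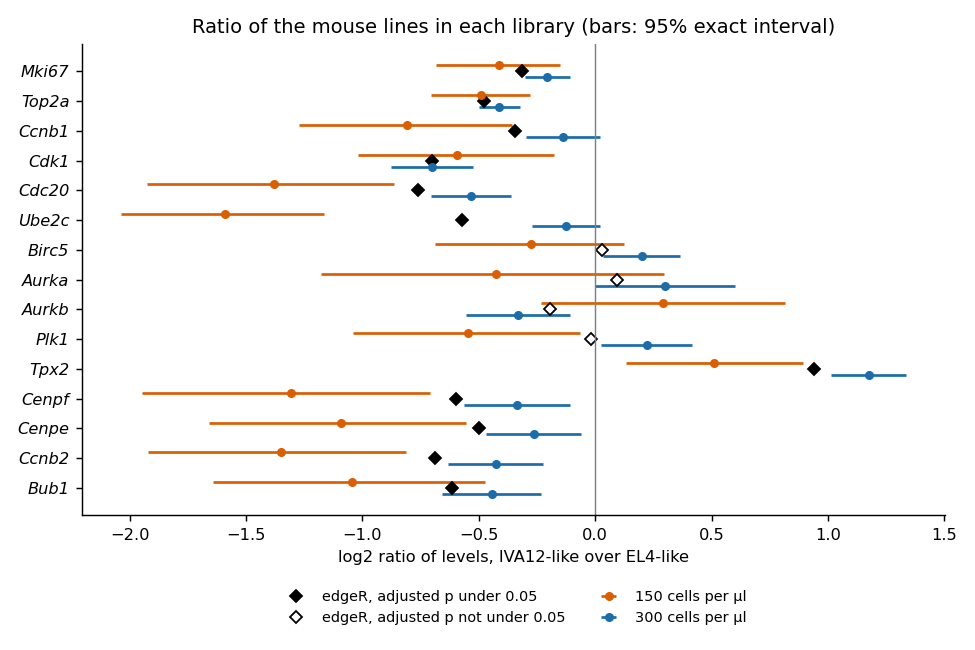
log2 ratio of IVA12-like to EL4-like cells for the 15 mouse genes. Coloured points are the ratios in each library with 95% exact intervals, and diamonds are the edgeR fit over both, filled where the adjusted p was under 0.05. Tpx2 alone lies right of 0 among the filled diamonds, and Cdc20, Ube2c, Ccnb2, Cenpf, Cenpe and Bub1 lie under -1 at 150 cells per µl but not at 300 cells per µl.

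The wider G2 and mitosis programme did not share one direction between the mouse lines. Of 25 other G2 and M genes, all of them tested, 5 were called higher in IVA12-like and 11 in EL4-like cells (edgeR, as above), and their median log2 ratio was -0.09. Over all 8872 mouse genes tested, 27.6% and 29.2% were called in these directions, and the median was -0.03. The called genes ran from Nek2, a centrosome kinase, at 1.68 to Cks2, a small CDK-binding protein, at -1.24. The smallest called ratios were those of Pttg1, the securin that holds sister chromatids until anaphase, at 0.40 and of the kinetochore gene Nuf2 at -0.57. Among 14 S phase genes, 2 were called higher in IVA12-like and 9 in EL4-like cells, with a median log2 ratio of -0.64, against the same values over all genes. In EL4-like cells the genes called higher ran from Ccne1 at -0.52 to Gins2, a replication fork subunit, at -1.86. Cdc6, a replication licensing factor, was called higher in IVA12-like cells at 0.62. Tk1, thymidine kinase, had 0 UMIs in EL4-like cells of both libraries and 46 and 136 UMIs in IVA12-like cells, which were thus higher by at least 20.6-fold and 65.9-fold (with EL4-like cells set to a limit of 3 UMIs per library).

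Between the libraries the largest shifts were in IVA12-like cells. There 14 of the 15 genes were at a higher level at 300 than at 150 cells per µl, and the median log2 ratio was 0.62 against 0.14 over the mouse genes with at least 100 UMIs. Cdc20 (40 and 416 UMIs, log2 ratio 1.07, 0.60 to 1.58) and Ube2c (57 and 623 UMIs, 1.14, 0.75 to 1.56) were past 2-fold, which 5.38% of 4459 genes were in that line. In EL4-like cells 7 genes were higher and 8 lower at 300 cells per µl, with a median of -0.07, and none was past 2-fold, where 3.76% of 5486 genes were. Jurkat-like cells had 11 higher and 4 lower, a median of 0.11 and again none past 2-fold, where 1.77% of 3845 genes were. Most genes thus kept their level within 2-fold whatever the loading, apart from Cdc20 and Ube2c in the 27 IVA12-like cells at 150 cells per µl.

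MKI67 was at a higher level at 300 cells per µl in each line, with 1 library per concentration and intervals for counting error only. Its log2 ratio of 300 over 150 cells per µl was 0.41 (0.25 to 0.59) in EL4-like, 0.62 (0.40 to 0.85) in IVA12-like and 0.65 (0.45 to 0.85) in Jurkat-like cells. TOP2A, of similar level and role, gave 0.09 (-0.04 to 0.23), 0.17 (-0.02 to 0.36) and 0.09 (-0.10 to 0.28). BIRC5 was lower at 300 cells per µl in Jurkat-like cells, with 178 and 221 UMIs and a log2 ratio of -0.79 (-1.08 to -0.50). The cells at 300 cells per µl had fewer UMIs each in every line, as given above, and the part of depth in these ratios was not tested.

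Detection was compared at equal depth, since a deep cell shows a scarce transcript more often. Each cell of at least 2000 UMIs of its species was thinned at random to 2000, which kept 43 and 342 EL4-like, 27 and 222 IVA12-like, and 82 and 273 Jurkat-like cells and left out 7 and 48, 0 and 1, and 5 and 45. Top2a was then detected in 60.5% (26 of 43 cells) and 67.5% (231 of 342) of EL4-like cells, in 55.6% and 51.8% of IVA12-like cells and, as TOP2A, in 47.6% and 50.9% of Jurkat-like cells. Aurka was at the other end, with 13.95% and 8.19% in EL4-like and 7.41% and 10.8% in IVA12-like cells. Over the 15 genes, detection ran from 13.95% to 60.5% and from 8.19% to 67.5% in EL4-like cells, from 7.41% to 55.6% and from 10.8% to 56.8% in IVA12-like cells, and from 6.10% to 47.6% and from 16.8% to 63.4% in Jurkat-like cells.

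Unthinned, the 15 genes were each seen in 23.6% to 90% of the cells of a line and library. The genes of the other species were seen in far fewer cells. The minimum of 90% of UMIs from 1 species limits such RNA in advance. Stray RNA of a cell's own species is not measured by this comparison. In Jurkat-like cells the mouse genes were detected in a median of 1.15% and 2.52% of cells per gene, at most in 9.20% (Top2a) and 14.8% (Mki67). In EL4-like cells the human genes were detected in at most 6% and 4.87% of cells (TOP2A), and in IVA12-like cells in at most 7.41% (TOP2A) and 3.14% (MKI67). The lowest own-species share, 23.6% for PLK1 in Jurkat-like cells at 300 cells per µl, was above each of these.

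The number of the genes that a cell showed was counted at equal depth. Cells with 3 or more of the 15 genes made up 76.7% (33 of 43, 95% exact binomial interval 61.4 to 88.2) and 78.1% (267 of 342, 73.3 to 82.3) of EL4-like cells. The shares were 63.0% (17 of 27, 42.4 to 80.6) and 65.3% (145 of 222, 58.7 to 71.6) in IVA12-like cells, and 76.8% (63 of 82, 66.2 to 85.4) and 78.0% (213 of 273, 72.6 to 82.8) in Jurkat-like cells. With another seed for the thinning the share was 48.1% in IVA12-like cells at 150 cells per µl. These intervals cover the draw of cells within 1 library, and the lines were not tested against each other.

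Cells in which none of the 15 genes was detected were 4.65% (2 of 43) and 2.92% (10 of 342, 1.41 to 5.31) in EL4-like, 22.2% (6 of 27, 8.62 to 42.3) and 10.4% (23 of 222, 6.68 to 15.1) in IVA12-like, and 2.44% (2 of 82) and 5.86% (16 of 273, 3.39 to 9.34) in Jurkat-like cells. The share was highest in IVA12-like cells of both libraries, though its interval overlapped that of another line in each. At 150 cells per µl this was EL4-like cells (0.568 to 15.8), and at 300 cells per µl it was Jurkat-like cells. If every cell of a line had held the same share of these transcripts, the Poisson expectation of empty cells would have been 0.0629% and 0.0504%, 0.674% and 0.151%, and 0.112% and 0.0205%. Empty cells were therefore more frequent than counting alone gives in each line and library. The richest cells held 10 and 13 of the 15 genes in EL4-like, 10 and 12 in IVA12-like, and 12 and 14 in Jurkat-like cells. The top 10% of cells carried 25.7% to 30.3% of the UMIs of the 15 genes in the 6 combinations.

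**Figure D3:**
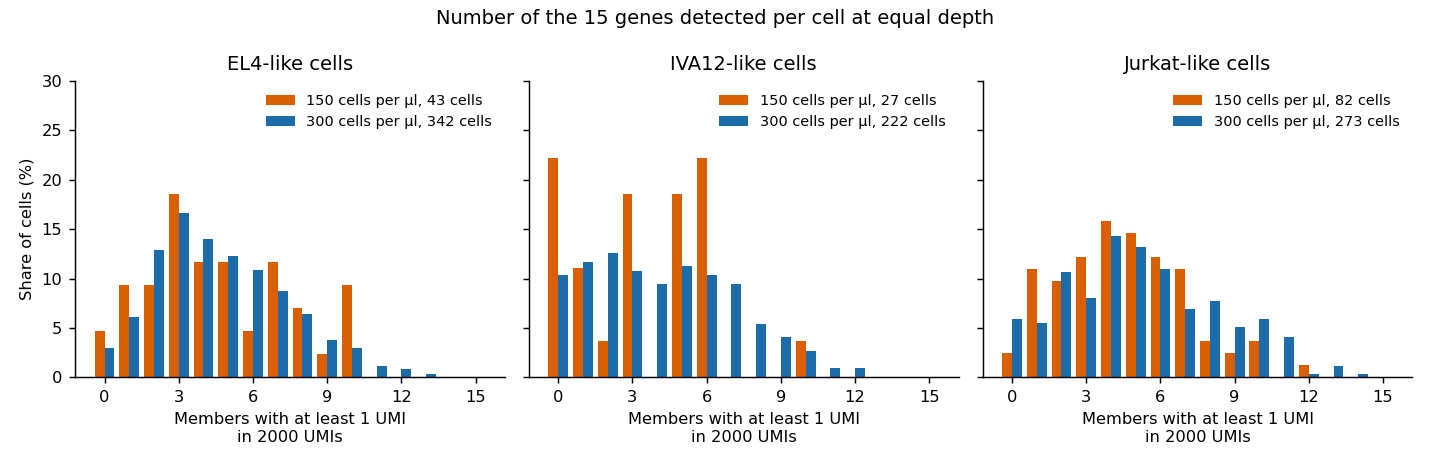
Share of cells (vertical axis, %) by the number of the 15 genes with at least 1 UMI after each cell was thinned to 2000 UMIs, with 1 bar colour per library. The bar at 0 is highest in IVA12-like cells, with 22.2% of 27 and 10.4% of 222 cells, and the bars reach 13, 12 and 14 genes in the 3 lines at 300 cells per µl.

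Single genes were also spread unevenly over the cells. At 300 cells per µl the variance of the thinned UMIs was over 1.5 times the mean for 5 of the 15 genes in EL4-like cells, against 1.08% of 5550 genes detected in at least 5% of cells. It was so for 5 of 15 in IVA12-like cells, against 2.04% of 5444, and for 7 of 15 in Jurkat-like cells, against 0.882% of 5894. At 150 cells per µl it was so for 5, 7 and 4 of the 15 genes in EL4-like, IVA12-like and Jurkat-like cells, against 3.73%, 6.51% and 1.78% of the genes so detected. The genes behind these shares were not matched to the 15 genes in level. TOP2A and UBE2C were past this value in each line at 300 cells per µl, while at 150 cells per µl UBE2C in Jurkat-like cells was at 1.35. At 300 cells per µl TOP2A had a ratio of variance to mean of 1.72, 1.94 and 2.02 in EL4-like, IVA12-like and Jurkat-like cells, and was detected in 67.5%, 51.8% and 50.9% of cells where an even spread would give 79.5%, 70.6% and 65.1%. UBE2C had 1.61, 1.73 and 1.82, and was detected in 34.8%, 29.7% and 33.0% where an even spread would give 44.4%, 39.3% and 40.3%. BUB1 was closer to even, with 24.6%, 17.1% and 49.5% detected where 26.2%, 19.8% and 54.0% would be. The remaining genes past 1.5 were Mki67, Ccnb1 and Cenpe in EL4-like, Cdk1, Birc5 and Tpx2 in IVA12-like, and CCNB1, CDK1, AURKA, TPX2 and CENPF in Jurkat-like cells.

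At 300 cells per µl, each of the 15 genes was detected in a larger share of the cells that showed 3 or more of the other 14 genes than of the cells that showed none of them, in all 3 lines. At 150 cells per µl this held for 13 genes in EL4-like, 13 in IVA12-like and 12 in Jurkat-like cells, with 2 to 7 cells that showed none. The exceptions were Cdc20 and Birc5 in EL4-like, Cdc20 and Ube2c in IVA12-like, and MKI67, TPX2 and CENPF in Jurkat-like cells. At 300 cells per µl, Top2a was seen in 75.2% of the 234 EL4-like cells that showed 3 or more of the other 14 genes and in 28.6% of the 14 cells that showed none of them. In IVA12-like cells it was seen in 67.9% of 137 and 17.9% of 28, and in Jurkat-like cells in 61.2% of 209 and 11.1% of 18. Ccnb1 followed the same order in IVA12-like cells, with 45.7% of 138 and 0 of 23 cells. Depth before thinning differed between these groups of cells. At 300 cells per µl, median UMIs in cells with none, 1 or 2, 3 or 4, and 5 or more of the genes were 6767, 7372, 7627 and 8932 in EL4-like cells. They were 8804, 6547, 7471 and 9981 in IVA12-like cells and 3667, 3387, 4324 and 3958 in Jurkat-like cells. Depth followed the number of genes in order only in EL4-like cells, but cells with 5 or more were deeper than those with none in each line. At 150 cells per µl the medians with none and with 5 or more were 9065.5 and 16553.5 in EL4-like cells. They were 13722 and 15684.5 in IVA12-like cells and 5730 and 7010.5 in Jurkat-like cells, where 2, 6 and 2 cells of the lines showed none. The part of depth in co-detection beyond the thinning was not tested.

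Correlations between single pairs were weak at this depth. The median Pearson correlation of log2(UMIs + 1) over the 105 pairs was 0.158 and 0.122 in EL4-like, 0.107 and 0.157 in IVA12-like, and 0.0979 and 0.191 in Jurkat-like cells. At 300 cells per µl, 100, 101 and 104 of the 105 pairs were above 0 in the 3 lines, at 150 cells per µl 86, 70 and 76 were, and 42 pairs were above 0 in all 6 combinations. TOP2A with CDK1 was the 1 pair above 0.2 in all 6, with 0.447 and 0.260 in EL4-like, 0.460 and 0.381 in IVA12-like, and 0.384 and 0.360 in Jurkat-like cells. MKI67 with TOP2A, both chromosome genes, gave 0.330 and 0.313, 0.620 and 0.262, and 0.0253 and 0.272. TOP2A with UBE2C gave 0.490 and 0.400, 0.0711 and 0.372, and 0.477 and 0.402. Values in the 27 IVA12-like cells at 150 cells per µl can rest on 1 or 2 cells, as for Cdc20 with Ube2c, where r was 0.648 and 1 cell held both. Over the 105 pairs, the correlations of the libraries of 1 line were related at r = 0.446 in EL4-like, 0.114 in IVA12-like and 0.283 in Jurkat-like cells, so the order of single pairs was poorly repeated. All pairs of a line share its cells and their depth, and these values are descriptions.

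**Figure D4:**
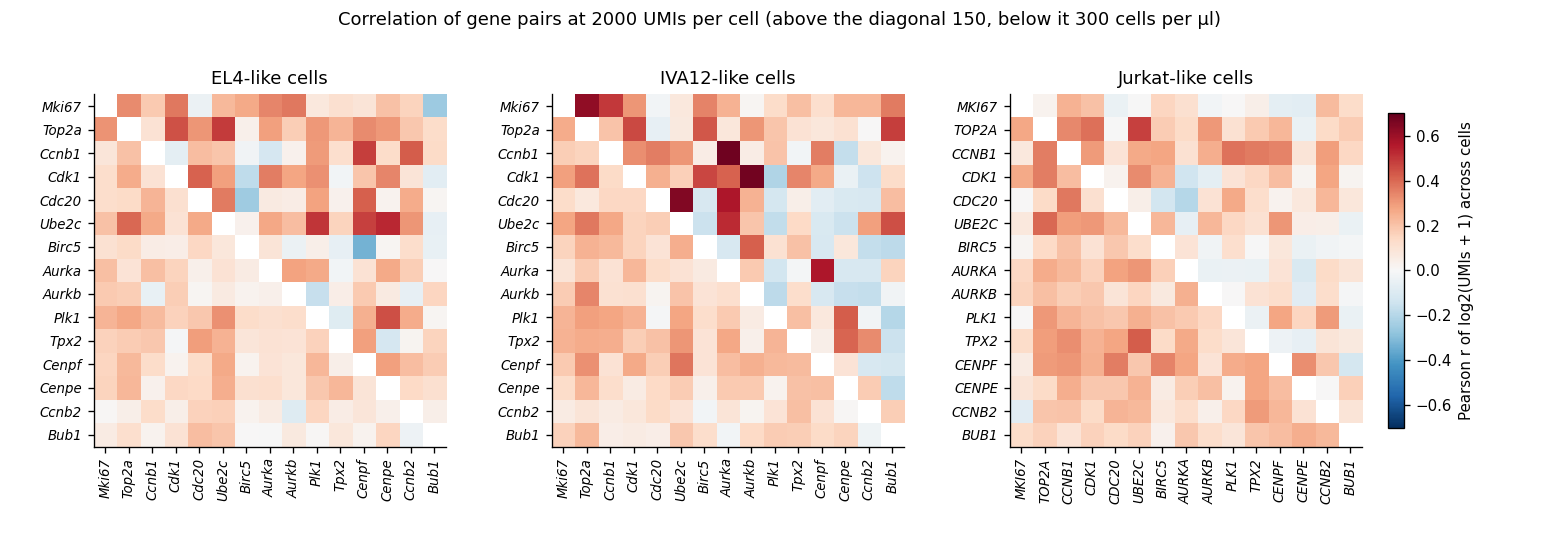
Pearson correlation of log2(UMIs + 1) for each pair of the 15 genes across cells thinned to 2000 UMIs (colour), with the library at 150 cells per µl above the diagonal and that at 300 cells per µl below it. Below the diagonal 100, 101 and 104 of 105 pairs are above 0, and the strongest colours, above the diagonal in IVA12-like cells, come from 27 cells.

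Other cell-cycle genes varied with the number of the 15 genes that a cell showed. At equal depth the 25 other G2 and M genes summed to 66.3 UMIs per 10000 in EL4-like cells with 5 or more of the 15 genes and to 21.0 in those with none, at 300 cells per µl. In IVA12-like cells the sums were 62.5 and 9.57, and in Jurkat-like cells 66.2 and 11.3. Across cells, the log2 sums of the 15 and of the 25 genes correlated at Pearson r of 0.468 and 0.627 in EL4-like, 0.782 and 0.784 in IVA12-like, and 0.544 and 0.746 in Jurkat-like cells.

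The S phase genes act one stage earlier. Their sum was 39.1 per 10000 in EL4-like cells with 5 or more of the 15 genes, 45.8 in those with 1 or 2 and 29.0 in those with none, at 300 cells per µl. Jurkat-like cells gave 32.7, 45.9 and 34.7. In IVA12-like cells the values were 25.8, 18.1 and 10.9, and the 6 empty cells at 150 cells per µl held 7.5. Cells with none of the 15 genes thus held the fewest S phase transcripts in both mouse lines at 300 cells per µl. These were 10 EL4-like and 23 IVA12-like cells. At 150 cells per µl the 2 EL4-like cells with none held 47.5, against 33 in those with 5 or more. The correlation of the S phase sum with the sum of the 15 genes was -0.115 and 0.00272 in EL4-like, 0.523 and 0.319 in IVA12-like, and -0.258 and -0.229 in Jurkat-like cells. The difference between lines was not tested, since cells of 1 library are not replicates.

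**Figure D5:**
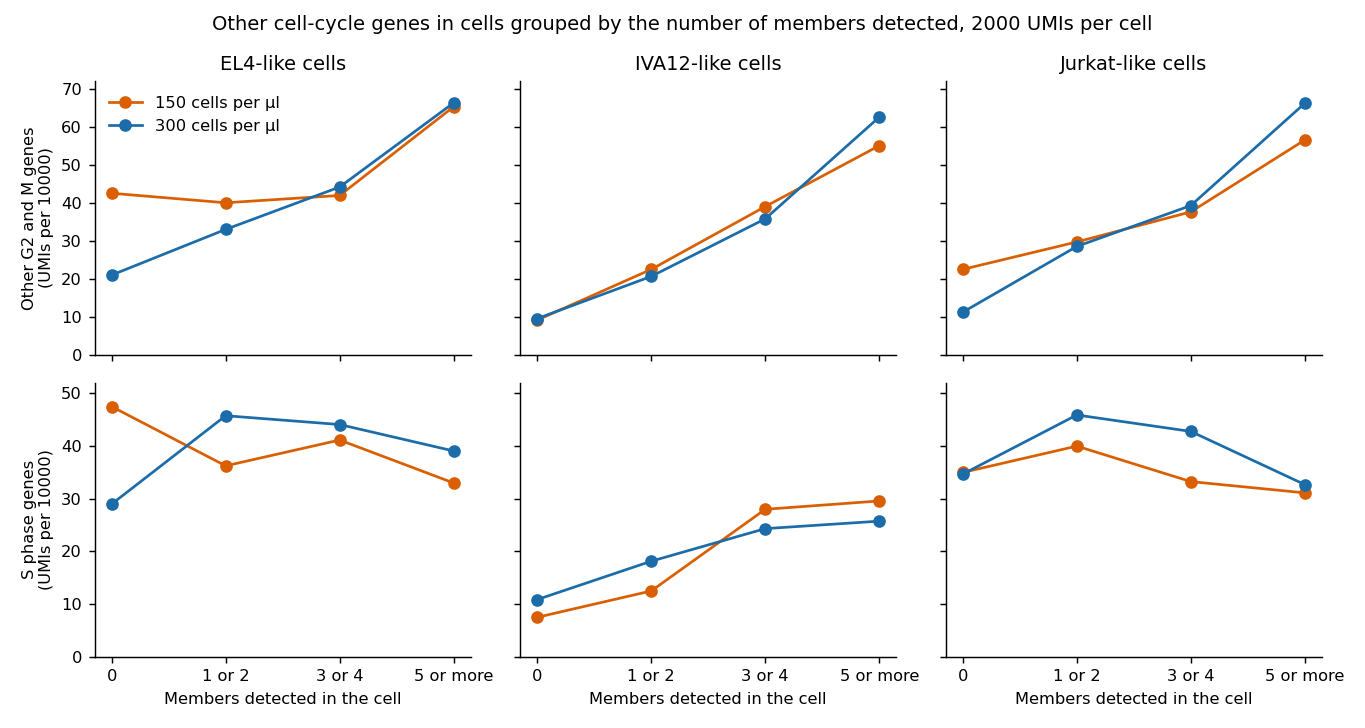
Summed UMIs per 10000 of the 25 other G2 and M genes (upper row) and the 14 S phase genes (lower row) in cells grouped by how many of the 15 genes were detected at 2000 UMIs, with 1 line per library. The upper curves climb to 55.0 to 66.3 in cells with 5 or more genes, and the lower curve climbs from 7.5 and 10.9 to 29.6 and 25.8 in IVA12-like cells.

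Genes outside the 30 that varied most like the sum of the 15 were ranked by the lower of the correlations in the libraries, among 4313, 4208 and 4837 genes detected in at least 5% of cells of both. Of the first 20 in each line, 7 in EL4-like, 8 in IVA12-like and 6 in Jurkat-like cells belonged to the 25 other G2 and M genes, and 0 to the S phase genes. HMGB2, a chromatin protein of dividing cells, headed the order in IVA12-like (0.806 and 0.509) and Jurkat-like cells (0.436 and 0.473), and is named here after its values were seen. The first in EL4-like cells was mm10_ENSMUSG00000018362, at 0.546 and 0.419, whose symbol no table at hand gives.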

How the data were processed

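For each library the authors deposited raw UMI counts (genes by barcodes, not normalized), with Ensembl identifiers prefixed by species. The submitters' processing notes name STAR 2.4.2a, Cell Ranger 1.2.0 and the builds hg19 and mm10, while the study's methods describe downsampling of the reads before Drop-seq tools and STAR. Whether the tables used here were made from such reads is not given in the sources used here. Tables summed to 2398956 (2000 barcodes) and 8707135 UMIs (4000 barcodes). Symbols of the 30 genes came with their identifiers. Those of list and marker genes were paired by hand, since the gene table at hand (0 Ensembl identifiers) could not check them.

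The genes and lists were chosen with earlier results of these data known. Cells were clustered per species without all cell-cycle lists (2000 variable genes, 15 components, 15 neighbours, Leiden resolution 0.5, leidenalg 0.10.2). A cluster with median UMIs over 3-fold below its library's and no marker among its top 10 genes stayed unnamed. No doublet caller was run, and 18 and 121 mixed barcodes were left out. Sums per line and library were tested with edgeR 4.0.16 (TMM, filterByExpr, quasi-likelihood, library block) in R 4.3.3, and with DESeq2 1.42.0. The edgeR fit was also run on simulated counts with 1 fixed dispersion and the same line ratio in both libraries. That check does not cover line ratios that differ between the libraries. Thinning used seed 1. All 30 genes are named. Of the lists, the largest and smallest called ratios are named. Intervals are exact (95%) and cover counting error only.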

Additional observations from a re-analysis of the deposited data

Results flagged for a closer look

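In 4 of the mouse genes the sign of the line ratio differed between the libraries, and the difference itself was not tested. The log2 ratio of IVA12-like to EL4-like cells at 150 and 300 cells per µl was -0.28 and 0.20 for Birc5, -0.43 and 0.30 for Aurka, 0.29 and -0.33 for Aurkb, and -0.55 and 0.22 for Plk1. The intervals of Plk1 excluded 0 on opposite sides, at -1.04 to -0.06 and 0.03 to 0.42.

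Barcodes outside the comparisons also held the G2 and mitosis transcripts, above the 3 UMIs that a count of 0 allows. Those under 1000 UMIs were not split into barcodes with and without a cell. In barcodes under 1000 UMIs the human genes were at 51.4 and 47.2 and the mouse genes at 44.8 and 47.0 per 10000 UMIs of their species in the libraries at 150 and 300 cells per µl. Each of these values was above the sums in the named lines of the same species and library. The part of stray RNA in the levels of the cells was not tested. Mixed barcodes gave 41.0 and 29.3 for the human and 30.2 and 45.1 for the mouse genes. The unnamed shallow mouse cells gave 26.2 (38 UMIs, 95% exact Poisson interval 18.5 to 35.9) and 41.8 (446 UMIs, 38.0 to 45.9).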

How the results depend on the processing

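Tpx2 was the 1 gene called higher in IVA12-like cells under each of 10 alternatives (other normalizations, filters, cell minimums, purity, line assignment, DESeq2). The count called higher in EL4-like cells was 10 (29.2% of all genes), and 2 (8.47%) with DESeq2 and 5 (19.7%) without the library block; with no filter on low counts it was 8 (17.1%), where the median log2 ratio of all genes rose to 0.15, and 8 (26.1%) with the unnamed cells, an alternative chosen after seeing the data. With no filter, and likewise with the unnamed cells, the genes no longer called were Ccnb1 and Mki67. No called gene changed sign in any alternative or with either library left out. Weighting cells equally lowered the summed level to 36.3 and 39.1 in EL4-like, 24.2 and 32.2 in IVA12-like, and 36.3 and 42.5 in Jurkat-like cells, and a purity of 95% moved Jurkat-like cells at 300 cells per µl to 47.1. The share of cells with 3 or more genes depends on depth. At 1000 UMIs it was 54.0% and 54.4%, 18.5% and 43.5%, and 55.3% and 54.6% in the same order. At 3000 UMIs it was 89.9% in EL4-like and 74.9% in IVA12-like cells at 300 cells per µl, and 96.0% and 87.9% in Jurkat-like cells. Median pair correlations moved by less than 1 SD over pairs, though that of IVA12-like cells at 150 cells per µl was -0.080 at 1000 UMIs. Barcodes of 500 to 999 UMIs could not be clustered by line and were assigned by marker sums. The 27 IVA12-like cells at 150 cells per µl limit every value that rests on them.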
